A study of Danio rerio with 18 samples.

Results

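Kinesins are motor proteins that walk along microtubules. Some slide and sort the microtubules of the mitotic spindle, others carry vesicles, organelles and RNA along axons or build cilia, and a few bind microtubules without walking at all. Kif7 itself is a kinesin of the primary cilium that takes part in Hedgehog signalling, and the study asked which transcripts differ in zebrafish that carry a mutation in it, with and without scoliosis. Described here are the kinesin genes other than kif7, chosen as every gene of the count table whose symbol begins with kif or kifc followed by a digit, kif7 left out. The rule found 43 of 31901 genes, on 18 chromosomes. By textbook roles 12 of them act in mitosis and cytokinesis, 12 in axonal and synaptic transport, 5 in intraflagellar transport or the cilium and 7 in the transport of vesicles and organelles, and 7 are kif26 genes or others. Among the latter, kif1bp is not a motor: a table of gene names lists it as KIFBP, a protein that binds kinesins.

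RNA from whole zebrafish was sequenced in 18 libraries of 7 groups. At 6 weeks past fertilization (wpf) each library came from 1 fish, with 3 wild-type AB fish, 3 heterozygous kif7co63/+ fish, 3 non-scoliotic kif7co63/co63 fish and 3 scoliotic kif7co63/co63 fish. At 4 days past fertilization (dpf) each library came from a pool of 20 embryos, with 2 pools each of AB, kif7co63/+ and kif7co63/co63. The co63 allele is an indel made by CRISPR-Cas9 in an exon of kif7, bred from AB outcrosses, and homozygotes were then kept by crossing homozygotes with each other, so that genotype and family cannot be told apart. No source used here gives the sex or the parents of a sequenced fish.

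Total counts per library ran from 44503110 to 69698533. Levels are given as CPM (counts-per-million, on library sizes scaled by the trimmed mean of M-values). kif7 was measured at 41.7, 42.8 and 47.7 CPM in AB fish at 6 wpf, at 23.6 to 32.3 CPM in kif7co63/+ fish and at 25.5 to 29.8 CPM in the 6 kif7co63/co63 fish. It lay at 13.0 and 15.3 CPM in the AB pools at 4 dpf, at 14.8 and 15.6 CPM in the kif7co63/+ pools and at 10.8 and 21.5 CPM in the kif7co63/co63 pools, so kif7 RNA did not separate the genotypes at 4 dpf. The kif7co63/co63 pools at 4 dpf stood apart from each other, with a chi-square per gene of 479, against 27.4 to 152 between libraries of any other group. Of the 43 members, 14 overlap another annotated gene, and for kif16bb, kif20ba, kif22, kif26aa and kif5aa that gene lies on the same strand. Whether the counting used strand is not given in the sources used here, so reads of overlapping genes cannot be told apart. A gene was called when edgeR's quasi-likelihood test gave it a Benjamini-Hochberg adjusted p under 0.05 over all genes tested, and values after ± are standard errors of a log2 fold change. In whole-animal RNA, fewer cells of a type and less RNA per cell cannot be told apart.

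Reads were found on every member in every library except for kif20ba, a duplicate of the cytokinesis gene kif20bb. It had 5 reads in scoliotic fish 1, 1 read in scoliotic fish 3 and none in the other 16 libraries, and passed the filter on low counts in no comparison. On a scale per kilobase of gene length, kif5ba, a heavy chain of the conventional kinesin that carries many cargoes, had the highest mean level in each of the 7 groups, between 31.2 CPM per kb (kif7co63/+ at 6 wpf) and 57.0 CPM per kb (non-scoliotic). In AB pools at 4 dpf it was followed by kif5aa at 37.7 CPM per kb, within the same range of libraries, and, apart from these, by kif1aa at 17.3. In AB fish at 6 wpf kif5ba at 49.0 CPM per kb was followed by the spindle motor kif11 at 48.0, with overlapping libraries, and then, apart from them, by the chromosome-arm motor kif22 at 36.7. Along the whole order, neighbours overlapped in 31 of 42 steps in AB fish at 6 wpf and in 40 of 42 steps in kif7co63/co63 pools at 4 dpf.

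**Figure D1:**
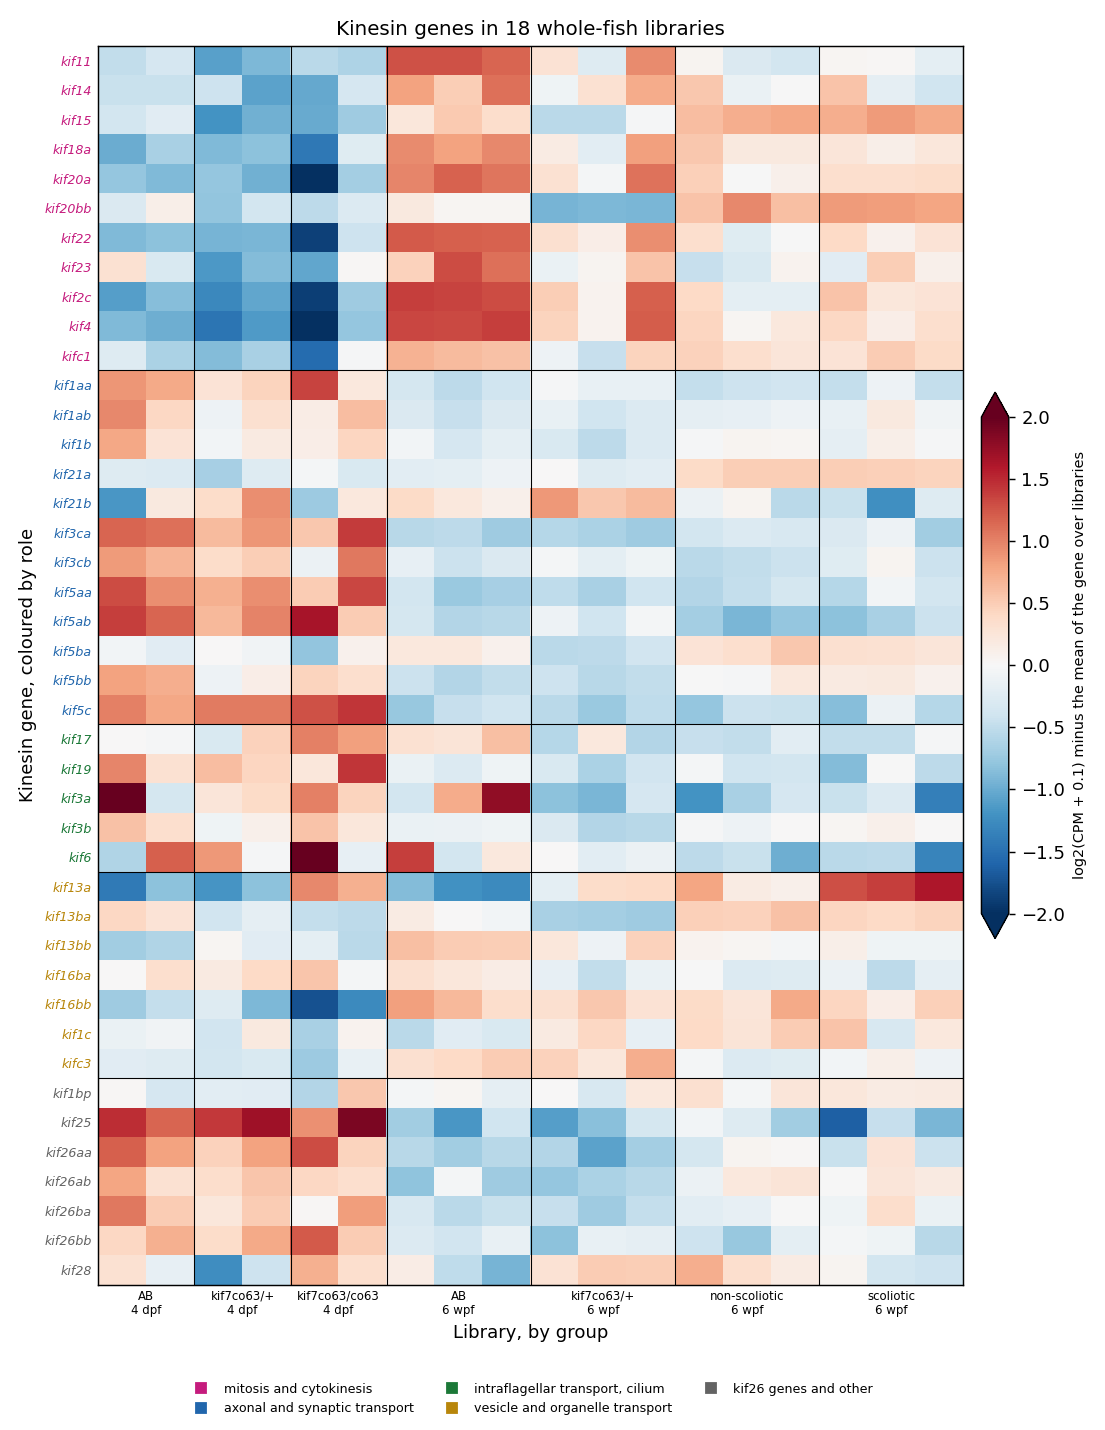
Each column is 1 library and each row 1 kinesin gene, coloured by role on the left; the colour scale gives log2(CPM + 0.1) minus the mean of that gene over the 18 libraries, and kif20ba, with reads in 2 libraries, is left out. The mitotic genes at the top are red in AB fish at 6 wpf and mostly blue at 4 dpf, and many axonal genes show the reverse.

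Between 4 dpf and 6 wpf the mitotic kinesins rose in AB. Of 41 members tested, 14 were higher and 16 lower at 6 wpf, beside 58.6% of all genes called in this comparison (30.3% higher, 28.2% lower). The libraries of the 2 ages did not overlap for 16 members that were higher and 18 that were lower, beside 37.3% and 37.1% of all genes. Of the 11 mitotic members tested, 10 were higher, with a median log2 fold change of 1.66, against -0.000972 over all genes. kif2c, the depolymerase that corrects attachments at centromeres, was at 10.2 and 12.2 CPM at 4 dpf and at 57.8, 56.6 and 54.4 CPM at 6 wpf. kif4, a chromokinesin that shapes mitotic chromosomes and the central spindle, was at 26.3 and 24.7 CPM at 4 dpf and at 123, 122 and 127 CPM at 6 wpf. The groups did not overlap for either gene, and the rise was 5.07-fold for kif2c (2.34 ± 0.13 on the log2 scale, adjusted p = 6.65e-06, edgeR) and 4.89-fold for kif4 (2.29 ± 0.12, adjusted p = 4.45e-06).

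kif22 rose 4.20-fold in AB, kif20a, which brings the passenger complex to the midzone, 3.78-fold, kif18a, which aligns chromosomes, 3.35-fold, and kif11, which pushes the spindle poles apart, 3.16-fold (largest adjusted p = 0.000104, edgeR). kif14, a cytokinesis motor, kifc1, a minus-end motor that focuses spindle poles, and kif15, which keeps the spindle bipolar with kif11, rose by less, 2.45-, 2.13- and 1.61-fold. kif23, part of the centralspindlin complex of cytokinesis, was called (0.99 ± 0.30, adjusted p = 0.021), but not without AB pool 2 (0.72, adjusted p = 0.117), AB fish 2 (0.81, adjusted p = 0.0639) or AB fish 3 (0.93, adjusted p = 0.0526). Of the mitotic members tested, kif20bb alone was not called, with 13.4 and 17.8 CPM at 4 dpf and 16.9 to 18.9 CPM at 6 wpf.

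The same 10 mitotic members were higher at 6 wpf in kif7co63/+, where 13 of 42 members tested were higher and 19 lower, beside 53.8% of all genes called (28.3% higher, 25.5% lower). The 15 members without overlap on the higher side include kif13a, which passed the filter on low counts through the fish, where it is high. Fish and pools did not overlap for these 15 and for 21 on the lower side (36.3% and 35.4% of all genes). Their libraries spread more: kif4 was at 17.7 and 22.2 CPM in the pools and at 66.4, 51.3 and 113 CPM in the fish, a rise of 3.85-fold (1.95 ± 0.32, adjusted p = 0.00117, edgeR), and fish 3 was the highest of its group for all 10. The median over the 11 tested was 1.21, against 0.01 over all genes. Leaving out 1 pool leaves 1 library in its group, so no count of members is given from those runs. With each library left out in turn, 5 of the 13 higher calls held (kif4, kif2c, kif22, kif23 and kifc3) and 9 of the 19 lower ones. The other 6 mitotic calls were lost without 1 or the other pool: kif11, kif18a, kifc1 and kif15 without pool 1 (adjusted p from 0.0587 to 0.179) and kif20a, kif14, kif18a and kifc1 without pool 2 (adjusted p from 0.0577 to 0.127). The comparison of AB ages and that of kif7co63/+ ages share no library.

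Markers of other cells moved with these genes. Of 26 listed markers of dividing cells that are not kinesins, 25 were found, and their summed level was 907 to 983 CPM in AB pools and 3142 to 3361 CPM in AB fish. The 10 oocyte markers found, of 11 listed, summed to 2.09 to 3.18 CPM in the 6 pools, with 1 to 3 of them at 0 in each, to 4455 to 5027 CPM in AB fish and to 2382 to 4234 CPM in kif7co63/+ fish. The part of germ cells in the rise of the mitotic kinesins was not tested.

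The axonal and synaptic kinesins moved the other way: 9 of 12 were lower at 6 wpf in AB, with a median of -1.15, and 9 of 12 in kif7co63/+, with a median of -0.49. kif5aa, a neuronal conventional kinesin, was at 196 and 151 CPM in AB pools and at 61.5, 47.4 and 50.02 CPM in AB fish, with no overlap, 3.26-fold lower (-1.70 ± 0.16, adjusted p = 9.64e-05, edgeR). kif1aa, which carries precursors of synaptic vesicles, was at 168 and 153 CPM in the pools and at 71.2, 62.7 and 68.4 CPM in the fish, 2.36-fold lower (-1.24 ± 0.12, adjusted p = 7.92e-05). kif5ab (3.43-fold), kif3ca, a neuronal relative of kif3a and kif3b (3.31-fold), kif5c (2.69-fold), kif5bb (2.39-fold), kif3cb (2.08-fold) and kif1ab (2.07-fold) were also lower in AB (largest adjusted p = 0.00125). In kif7co63/+, kif5c fell by 1.65 ± 0.15, kif3ca by 1.41 ± 0.15, kif5aa by 1.34 ± 0.14 and kif5ab by 1.02 ± 0.18 on the log2 scale (largest adjusted p = 0.00175). These 4 calls held with each library left out, and the other 5 of the 9 did not: kif1aa, kif5bb, kif3cb and kif1b, a relative of kif1aa, lost theirs without pool 2 (adjusted p from 0.0727 to 0.206), kif1b also without fish 1 or 2 (adjusted p = 0.0714 and 0.0724), and kif5ba is described next. kif1b was also lower in AB (-0.72, adjusted p = 0.0073).

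kif5ba was the member called in opposite directions. It rose in AB from 138 and 122 CPM to 165, 166 and 151 CPM (0.32 ± 0.12, adjusted p = 0.0473, edgeR) and fell in kif7co63/+ from 144 and 137 CPM to 98.1, 99.4 and 109 CPM (-0.46 ± 0.13, adjusted p = 0.014). The call in AB was lost without AB pool 2 (0.23, adjusted p = 0.142), AB fish 1 (0.31, adjusted p = 0.117), fish 2 (0.29, adjusted p = 0.0972) or fish 3 (0.36, adjusted p = 0.0779). That in kif7co63/+ was lost without pool 1 (-0.42, adjusted p = 0.0854), pool 2 (-0.50, adjusted p = 0.0539) or fish 1 (-0.43, adjusted p = 0.0688). The summed level of 15 neuron markers, all found and none at 0 in any library, was 2556 and 3324 CPM in AB pools and 1061 to 1157 CPM in AB fish, and 13 of them were lower at 6 wpf. Their part in the lower axonal kinesins was not tested.

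Among the remaining groups, the kif26 genes, which encode kinesins that lack motor activity, were lower at 6 wpf in AB and in kif7co63/+. kif26aa was at 30.2 and 22.9 CPM in AB pools and at 8.90, 8.01 and 8.85 CPM in AB fish, 3.07-fold lower (-1.62 ± 0.16, adjusted p = 0.000118, edgeR), and 2.68-fold lower in kif7co63/+ (adjusted p = 0.000375). kif25, a minus-end type kinesin, was at 8.48 and 6.87 CPM in AB pools and at 1.80, 1.28 and 2.24 CPM in AB fish. Its fall was 4.28-fold in AB (-2.10 ± 0.30, adjusted p = 0.000628) and 5.09-fold in kif7co63/+ (-2.35 ± 0.27, adjusted p = 0.000161), and its log2 fold change was the lowest of the members in each. kif26ba was at 71.2 and 48.7 CPM in AB pools and at 27.5, 23.5 and 25.1 CPM in AB fish, 2.35-fold lower (-1.23 ± 0.17, adjusted p = 0.000572), and 1.89-fold lower in kif7co63/+ (adjusted p = 0.000907). kif26ab was called in AB (-1.03 ± 0.24, adjusted p = 0.00766), but not without AB pool 1 (-0.77, adjusted p = 0.0605), and in kif7co63/+ (-1.11 ± 0.13, adjusted p = 0.000181) with each library left out. kif26bb was lower in AB (-0.84, adjusted p = 0.00838) and in kif7co63/+ (-0.94, adjusted p = 0.0132), the latter call being lost without pool 2 (-0.72, adjusted p = 0.12). kif28 was higher at 6 wpf in kif7co63/+, at 0.237 and 0.493 CPM in the pools and at 0.864, 1.02 and 1.02 CPM in the fish (1.40 ± 0.50, adjusted p = 0.0437), but not without pool 1 (0.97, adjusted p = 0.193) or any 1 of the fish (adjusted p from 0.0673 to 0.0846).

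Of the vesicle and organelle kinesins, 3 were higher at 6 wpf in AB. kif16bb, an endosome motor, was at 6.42 and 7.62 CPM in AB pools and at 18.7, 16.7 and 13.6 CPM in AB fish, and kif13bb, a carrier of membrane cargoes, at 24.4 and 26.0 against 60.0, 56.4 and 56.1 CPM. The groups did not overlap, and kif16bb rose 2.34-fold and kif13bb 2.30-fold (largest adjusted p = 0.00098, edgeR). The third was kifc3, a minus-end motor of cell junctions. Of the 5 ciliary members, 2 were lower in AB and 3 in kif7co63/+, among them kif3b, a subunit of the anterograde intraflagellar transport motor, at 40.6 and 34.3 CPM in AB pools and 24.7 to 25.3 CPM in AB fish (-0.58 ± 0.12, adjusted p = 0.00418). kif19, a kinesin that shortens cilia, was the other in AB (-0.85, adjusted p = 0.0129), but not without AB pool 1 (-0.46, adjusted p = 0.093). In kif7co63/+, kif19 (-0.97, adjusted p = 0.00182) was called with each library left out, while kif3b lost its call without pool 1 (-0.57, adjusted p = 0.0501) or 2 (-0.38, adjusted p = 0.155), and kif3a (-1.06, adjusted p = 0.0382) without either pool or fish 1 or 2 (adjusted p from 0.0966 to 0.148). kif16bb in kif7co63/+ (0.93, adjusted p = 0.007) was not called without pool 2 (0.64, adjusted p = 0.0508), nor was kif16ba (-0.55, adjusted p = 0.0169) without pool 2 (-0.43, adjusted p = 0.137).

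**Figure D2:**
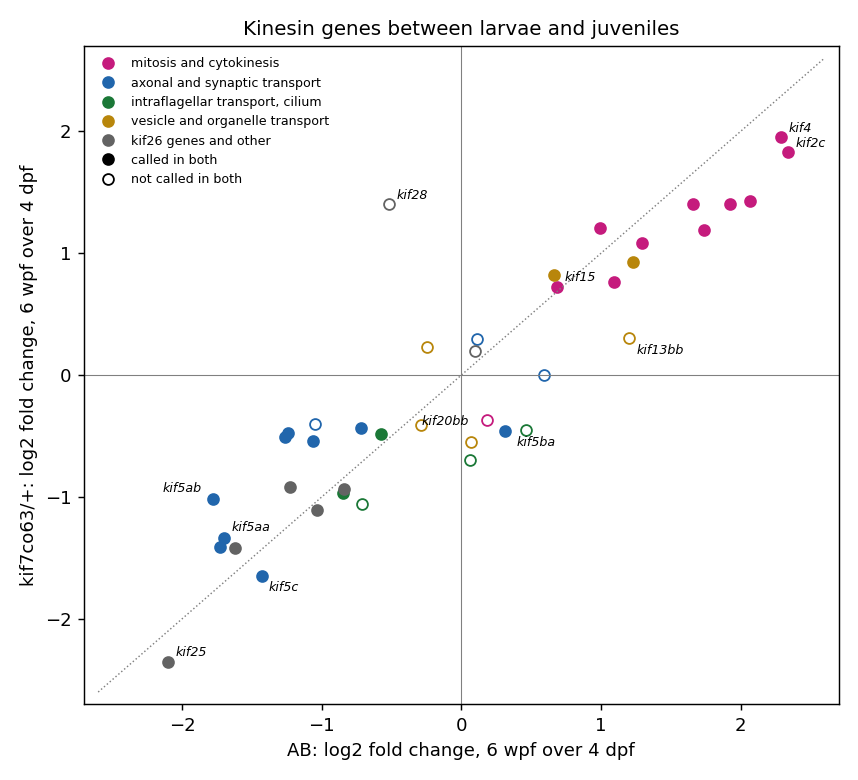
Log2 fold change of each tested member from 4 dpf to 6 wpf in AB (horizontal) and in kif7co63/+ (vertical), coloured by role; filled points were called in both comparisons, open points were not, and the dotted line marks equal change. Mitotic genes lie at the upper right, axonal and kif26 genes at the lower left, and kif5ba is filled at the lower right.

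In kif7co63/co63, the mean of the non-scoliotic and scoliotic fish was compared with the pools at 4 dpf. Of 42 members tested, 10 were higher and 13 lower, beside 36% of all genes called (16.7% higher, 19.3% lower). Without overlap were 14 on the higher and 16 on the lower side (21.8% and 23.2% of all genes). kif15 was at 18.8 and 23.1 CPM in the pools and at 58.7 to 68.9 CPM in the 6 fish, 3.05-fold higher (1.61 ± 0.16, adjusted p = 0.000375, edgeR), and kif20bb at 11.4 and 13.6 CPM against 24.5 to 32.1 CPM, 2.25-fold higher (1.17 ± 0.19, adjusted p = 0.00217). kif16bb rose 3.83-fold, kif4 2.94-fold, kif20a 2.83-fold and kif2c 2.61-fold (largest adjusted p = 0.0148). On the low side, kif5ab fell 3.74-fold, kif5c 3.67-fold, kif5aa 2.59-fold and kif3ca 2.58-fold (largest adjusted p = 0.00328). kif13ba (0.97, adjusted p = 0.00132) and kif21a (0.63, adjusted p = 0.011) were also higher, and kif3a (-1.51, adjusted p = 0.0271) and kif17 (-1.41, adjusted p = 0.0217) lower. kif3a lost its call without pool 1 (adjusted p = 0.165) or scoliotic fish 1 (adjusted p = 0.0522), and kif17 without pool 1 (adjusted p = 0.0876), pool 2 (adjusted p = 0.0511) or scoliotic fish 1 (adjusted p = 0.056). With each library left out, 8 of the 10 higher and 6 of the 13 lower calls held. The pools differed in many members, with kif20a at 5.39 and 14.97 CPM and kif5aa at 112 and 199 CPM. kif6, known in zebrafish from mutants with a curved spine, was called here (-2.46 ± 0.66, adjusted p = 0.0203), but without pool 1, which held 2.64 CPM against 0.439 CPM in pool 2, its value was -0.64 (adjusted p = 0.579).

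Across the 3 genotypes, 7 members were called higher at 6 wpf in each (kif15, kif16bb, kif18a, kif20a, kif22, kif2c and kif4) and 10 lower in each (kif19, kif1aa, kif25, kif26aa, kif26bb, kif3ca, kif3cb, kif5aa, kif5ab and kif5c). Of these, kif4 and kif2c on the higher side and kif3ca, kif5aa, kif5ab, kif5c and kif25 on the lower side kept their calls in each genotype with each library left out in turn. Between AB and kif7co63/+ alone, 12 higher calls were shared, of 14 in AB and 13 in kif7co63/+, and 15 lower calls, of 16 and 19. The share of all genes with calls shared in these ways was not counted. Of all genes tested, 58.6% were called in AB, 53.8% in kif7co63/+ and 36% in kif7co63/co63. Whether sharing is particular to the members was not tested.

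The partners of these motors were read from a list of kinesin light chains and adaptors, of which 11 of 16 were found, and one of cytoplasmic dynein and dynactin, the minus-end transport motor and its activator, of which 17 were tested. In AB, 6 adaptors were lower and 2 higher at 6 wpf, with a median of -0.75. mapk8ip2 (-1.88, adjusted p = 4.03e-05, edgeR) and mapk8ip1a (-1.74, adjusted p = 5.04e-05), scaffold proteins that link kinesin to axonal cargo, and the light chain klc1a (-1.14, adjusted p = 0.000222) were lower. cenpe, on the same list although it is itself a motor of the kinetochore outside the symbol rule, was higher (1.61, adjusted p = 2.72e-05). Of the dynein and dynactin genes 5 were lower and 3 higher in AB, with a median of 0.02. The neuronal intermediate chain dync1i1 was lower (-1.57, adjusted p = 0.000183) and the heavy chain dync1h1 higher (0.95, adjusted p = 0.00103).

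At 6 wpf, kif7co63/+ fish had lower levels of 11 members than AB fish and higher levels of 2, of 41 tested, beside 36.2% of all genes called (18.6% higher, 17.6% lower). The fish did not overlap for 4 members that were higher and 14 that were lower in kif7co63/+, beside 26.9% and 25.4% of all genes. kif20bb, kif15, kif13ba and kif5ba were lower and kept their calls with each library left out. kif20bb was at 18.9, 16.9 and 16.9 CPM in AB fish and at 8.56, 8.80 and 8.64 CPM in kif7co63/+ fish, 2.02-fold lower (-1.02 ± 0.11, adjusted p = 0.000446, edgeR). kif13ba, a carrier of membrane cargoes, was at 82.2, 74.0 and 70.4 CPM against 46.8, 45.7 and 44.9 CPM, 1.65-fold lower (-0.72 ± 0.10, adjusted p = 0.00129). The AB and kif7co63/+ fish did not overlap for either. On GRCz11, kif20bb (ENSDARG00000040110) spans chr12:16452575-16479291 and kif13ba (ENSDARG00000079731) chr17:16192486-16283814, each on the plus strand, and kif15 (ENSDARG00000012073) spans chr25:35068166-35095129 on the minus strand. kif15 was 1.65-fold lower (adjusted p = 0.00957) and kif5ba 1.57-fold lower (adjusted p = 0.00218).

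Shares of all genes called in the same run follow in parentheses. The count of 13 fell to 8 without AB fish 1 (25.3%), 5 without AB fish 2 (27.3%) and 5 without AB fish 3 (25.9%). It was 6 without kif7co63/+ fish 1 (22.1%) and 7 without fish 2 (27.8%), and rose to 18 without fish 3 (39.1%). kif11 was at 181, 183 and 168 CPM in AB fish and at 92.2, 63.0 and 144 CPM in kif7co63/+ fish, with a wide span among the heterozygotes. Its call (-0.83 ± 0.26, adjusted p = 0.0366, edgeR) was lost without any of the AB fish (adjusted p from 0.0673 to 0.0934) and without kif7co63/+ fish 1 (adjusted p = 0.115). kif22 (-0.69) and kifc1 (-0.63) lost their calls in the same way without AB fish 1, 2 or 3 and without kif7co63/+ fish 1 or 2, at adjusted p from 0.0512 to 0.125. kif23 (-0.81) was not called without AB fish 2 or 3 or kif7co63/+ fish 1 or 2 (adjusted p from 0.0894 to 0.123), nor kif16ba (-0.49) without AB fish 1 (adjusted p = 0.0605). The 2 higher members were kif1aa (0.33, adjusted p = 0.0359) and kif21b (0.45, adjusted p = 0.0376). kif1aa kept its call only without kif7co63/+ fish 3, and kif21b only without AB fish 1 or kif7co63/+ fish 2 (otherwise adjusted p from 0.0558 to 0.146). The summed mitotic kinesins were 643 to 663 CPM in AB fish and 352, 282 and 556 CPM in kif7co63/+ fish 1, 2 and 3, and the oocyte markers of those 3 fish were 3104, 2382 and 4234 CPM.

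kif7co63/co63 fish were compared with the same AB fish. Of 42 members tested in each comparison, non-scoliotic fish had 7 higher and 13 lower, beside 43.1% of all genes called (21.2% higher, 21.9% lower), and scoliotic fish had 6 higher and 12 lower, beside 42.1% (19.2% higher, 23% lower). These comparisons share their AB fish. Members without overlap numbered 14 higher and 15 lower in non-scoliotic fish (31.3% and 27% of all genes) and 13 higher and 13 lower in scoliotic fish (30.3% and 27.2%). The higher counts of each kind include kif13a, which passed the filter on low counts through the homozygous fish. Most of the lower members were mitotic, 9 of 13 in non-scoliotic and 8 of 12 in scoliotic fish. The 11 mitotic members tested had medians of -0.92 and -0.85 against 0.04 and 0.02 over all genes.

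kif11 (ENSDARG00000010948, chr17:19481049-19497006, plus strand) was at 78.4, 61.7 and 58.2 CPM in non-scoliotic and at 77.5, 76.3 and 65.3 CPM in scoliotic fish, all far below the 168 CPM of the lowest AB fish. It was 2.77-fold lower in non-scoliotic fish (-1.47 ± 0.13, adjusted p = 0.00047, edgeR) and 2.55-fold lower in scoliotic fish (-1.35 ± 0.10, adjusted p = 0.000175). kif2c was 2.58- and 2.08-fold lower, kif22 2.29- and 2.02-fold, kif4 2.22- and 2.17-fold, kif20a 1.89- and 1.75-fold and kif18a 1.55- and 1.72-fold, in that order of groups (largest adjusted p = 0.00744). These 6 genes were called in each comparison with each library left out. kif23 was called with each library left out in non-scoliotic fish (-1.28 ± 0.25, adjusted p = 0.00702), but in scoliotic fish (-0.93 ± 0.27, adjusted p = 0.0326) not without AB fish 2 (-0.75, adjusted p = 0.103), AB fish 3 (-0.87, adjusted p = 0.0952), scoliotic fish 1 (-0.78, adjusted p = 0.0767) or scoliotic fish 3 (-0.90, adjusted p = 0.0842). kif14 was lower in non-scoliotic fish (-0.72, adjusted p = 0.0447), but not without AB fish 1 or 3 or non-scoliotic fish 2 or 3 (adjusted p from 0.1 to 0.141). kifc1 was lower in each (-0.35 and -0.33, adjusted p = 0.0169 and 0.0243), a call lost without AB fish 1 in non-scoliotic fish (adjusted p = 0.0603), and in scoliotic fish without any 1 of the AB fish or scoliotic fish 1 or 3 (adjusted p from 0.0575 to 0.0807).

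These lower mitotic kinesins came with lower summed markers of dividing cells and of oocytes. The summed dividing-cell markers were 1447 to 1859 CPM in non-scoliotic and 1668 to 1841 CPM in scoliotic fish, against 3142 to 3361 CPM in AB fish. They did not all fall: of 24 tested against AB, 3 were higher and 18 lower in non-scoliotic fish. In scoliotic fish 5 were higher and 17 lower (edgeR). Mean levels in AB, non-scoliotic and scoliotic fish were 161, 226.5 and 255.5 CPM for mki67 and 126, 151 and 180 CPM for top2a. For ccnb1 they were 490.5, 59.1 and 42.45 CPM. The oocyte markers were 1113, 1.70 and 215 CPM in non-scoliotic fish 1, 2 and 3 and 438, 2.64 and 35.6 CPM in scoliotic fish 1, 2 and 3, with figla, gdf9, zar1 and zp2.2 at 0 reads in non-scoliotic fish 2 and gdf9 at 0 in scoliotic fish 2. In these 2 fish the mitotic kinesins summed to 342 and 391 CPM. They summed to 406 and 347 CPM in non-scoliotic fish 1 and 3 and to 410 and 385 CPM in scoliotic fish 1 and 3. Germ cell markers, 11 of 12 found, summed to 667 to 715 CPM in AB fish, 290 to 546 CPM in kif7co63/+ fish and 7.16 to 207 CPM in the homozygous fish, with the meiosis gene dmc1 at 0 in every library. The summed markers of skeletal muscle and of epidermis were higher than in AB fish. The 8 skeletal muscle markers summed to 19800 to 21840 CPM in AB, 26890 to 32040 CPM in kif7co63/+, 43880 to 44330 CPM in non-scoliotic and 31290 to 49120 CPM in scoliotic fish. Of 7 of them tested, 7 were higher than in AB in non-scoliotic and 5 in scoliotic fish. The 9 epidermis markers summed to 2078 to 2873 CPM in AB, 4367 to 5062 CPM in kif7co63/+, 3430 to 5005 CPM in non-scoliotic and 4230 to 5270 CPM in scoliotic fish. In the homozygous groups 3 and 4 were called higher and 1 and 0 lower (edgeR). The sum rests mostly on krt91, with means of 1820 CPM in AB, 3940 in kif7co63/+, 3535 in non-scoliotic and 3632 in scoliotic fish. In the same order krt4 was at 385, 368, 2.37 and 408 CPM, and tp63 at 14.4, 10.3, 13.1 and 10.5 CPM. The part of germ cells, muscle or epidermis in the members' differences from AB fish was not tested.

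**Figure D3:**
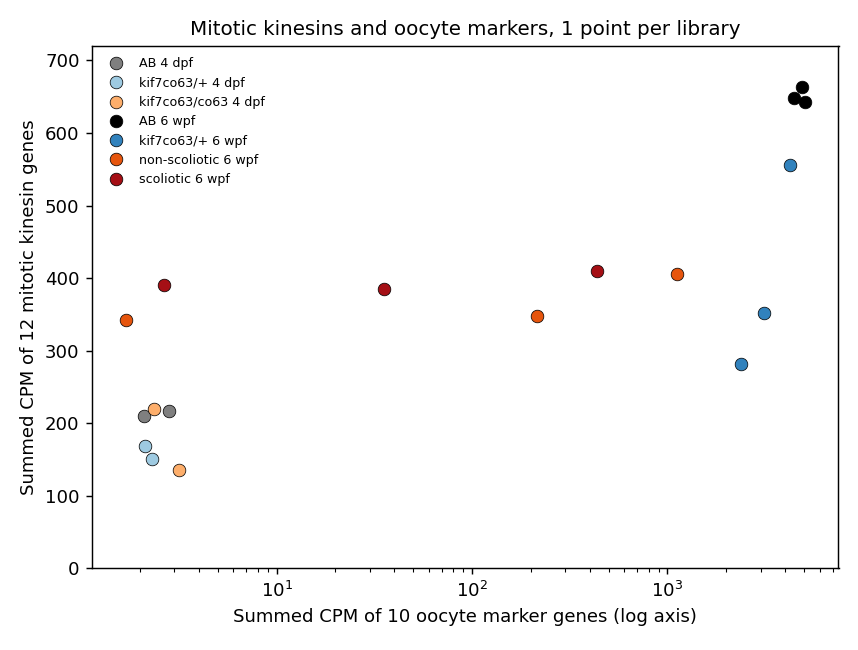
Each point is 1 library, with the summed CPM of 10 oocyte markers on a logarithmic horizontal axis and the summed CPM of the 12 mitotic kinesins on the vertical axis. AB fish at 6 wpf sit at the upper right between 643 and 663 CPM, and the 6 homozygous fish between 342 and 410 CPM over a wide range of oocyte markers.

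Not all mitotic kinesins were lower in homozygotes. kif20bb, a motor of late cytokinesis, was at 24.5, 32.1 and 24.9 CPM in non-scoliotic and at 29.6, 29.5 and 28.4 CPM in scoliotic fish, above every AB fish (16.9 to 18.9 CPM). On the log2 scale it was higher than in AB by 0.59 ± 0.14 in non-scoliotic fish (adjusted p = 0.0136, edgeR) and by 0.66 ± 0.09 in scoliotic fish (adjusted p = 0.00134). The call in non-scoliotic fish was lost without AB fish 2 (0.56, adjusted p = 0.0506) and without AB fish 3 (0.56, adjusted p = 0.0522). kif15 was at 44.7, 55.0 and 48.7 CPM in AB, at 58.7, 63.4 and 65.1 CPM in non-scoliotic and at 62.9, 68.9 and 64.5 CPM in scoliotic fish. It was called in scoliotic fish (0.33 ± 0.10, adjusted p = 0.0309), but not without AB fish 1 (0.27, adjusted p = 0.0978), AB fish 3 (0.32, adjusted p = 0.0992), scoliotic fish 2 (0.29, adjusted p = 0.0678) or scoliotic fish 3 (0.35, adjusted p = 0.0633), and was not called in non-scoliotic fish (0.29 ± 0.10, adjusted p = 0.0596).

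Against kif7co63/+ fish, which were low in these genes, the distance was larger. The same kif7co63/+ fish enter both comparisons and the one with AB, so these differences are not independent of their lower levels against AB. Non-scoliotic fish had 11 members higher and 5 lower of 42, beside 36.6% of all genes called (18.7% higher, 17.9% lower), and scoliotic fish 10 higher and 2 lower, beside 36.9% (18.4% higher, 18.5% lower). Without overlap were 12 higher and 6 lower in non-scoliotic fish (26.1% and 26.5% of all genes) and 12 higher and 5 lower in scoliotic fish (25.8% and 27.1%). The higher counts of each kind in scoliotic fish include kif13a, which passed the filter on low counts through those fish, where it is high. kif20bb was 3.11-fold higher in non-scoliotic (1.64 ± 0.14, adjusted p = 0.000479, edgeR) and 3.37-fold higher in scoliotic fish (1.75 ± 0.10, adjusted p = 0.000145). kif13ba was at 103, 102 and 110 CPM in non-scoliotic and at 99.2, 96.6 and 100 CPM in scoliotic fish, 2.27- and 2.15-fold above kif7co63/+ fish (largest adjusted p = 0.000483). kif15 was 2.06- and 2.19-fold higher, and kif5ba 1.81- and 1.71-fold higher (largest adjusted p = 0.00361).

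These 4 genes held their calls against kif7co63/+ fish with each library left out, as did kif21a, kif5bb and kif26ab. In non-scoliotic fish kif26aa (0.69), kif3b (0.43), kif26ba (0.40) and kif1b (0.37) were higher and kifc3 (-0.68), kif21b (-0.88), kif5ab (-0.64), kif3cb (-0.40) and kif1aa (-0.33) lower (largest adjusted p = 0.0364). Of these 9, kifc3 alone kept its call with each library left out. kif21b lost its call without kif7co63/+ fish 1 (adjusted p = 0.0521), and the other 7 each lost theirs without at least 1 fish of either group, at adjusted p up to 0.138 for kif1aa without kif7co63/+ fish 1. In scoliotic fish kif26ba (0.61, adjusted p = 0.022), kif13a (adjusted p = 0.0343, a call that depends on that filter) and, on the lower side, kifc3 (-0.50, adjusted p = 0.0381) were called. These calls were lost without any 1 of the kif7co63/+ fish for kif26ba, any 1 of the 6 fish for kif13a, and kif7co63/+ fish 1 or 3 or scoliotic fish 1 or 3 for kifc3 (adjusted p from 0.0521 to 0.117). The count of 16 in non-scoliotic fish fell to 10 without kif7co63/+ fish 1 (22.8% of all genes called) or non-scoliotic fish 2 (31.7%). It fell to 9 without non-scoliotic fish 3 (27.1%). kif5ba was not called between either homozygous group and AB (log2 fold change 0.17 ± 0.10 and 0.05 ± 0.08, adjusted p = 0.222 and 0.665, edgeR), although its libraries did not overlap, at 174, 180 and 208 CPM in non-scoliotic, 178, 176 and 170 CPM in scoliotic and 165, 166 and 151 CPM in AB fish.

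**Figure D4:**
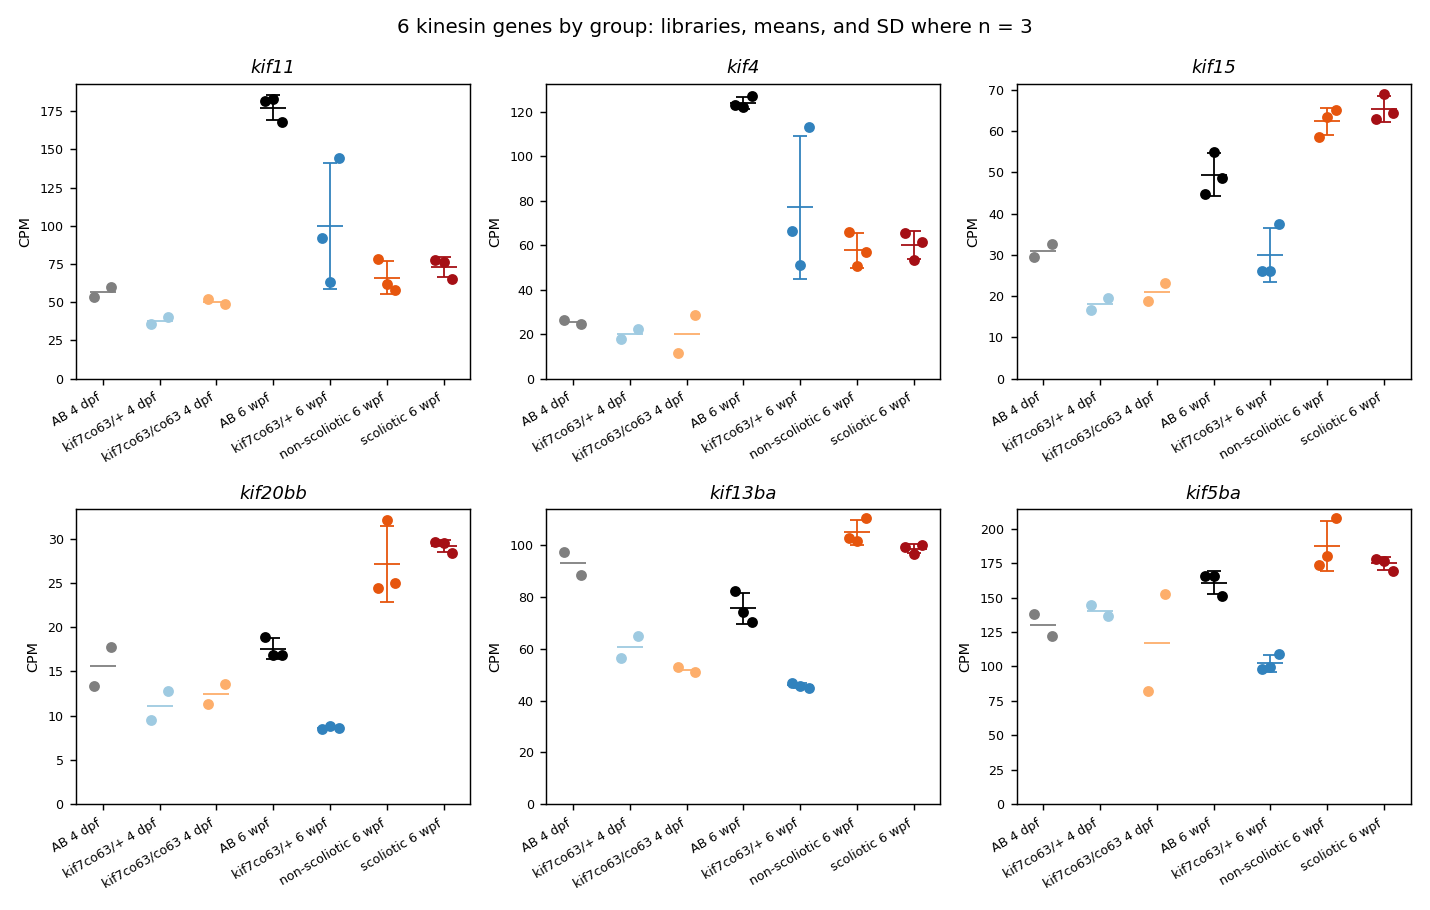
CPM of 6 kinesin genes in each library (points) by group, with the group mean (horizontal line) and, for groups of 3 fish, the SD (bars). kif11 and kif4 are highest in AB fish at 6 wpf, while kif15, kif20bb, kif13ba and kif5ba are lowest in kif7co63/+ fish among the 6 wpf groups and highest in kif7co63/co63 fish.

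Among the axonal kinesins, kif21a and kif5bb were higher in homozygotes at 6 wpf than in AB and in kif7co63/+ fish. kif21a, which restrains microtubule growth, was at 41.5, 42.1 and 44.6 CPM in AB, at 48.3, 40.1 and 41.5 CPM in kif7co63/+, at 62.8, 68.0 and 67.3 CPM in non-scoliotic and at 67.6, 66.6 and 65.2 CPM in scoliotic fish. The 6 homozygous fish lay above the other 6, by 1.49-fold in non-scoliotic and 1.48-fold in scoliotic fish relative to AB (0.58 ± 0.08 and 0.57 ± 0.07, largest adjusted p = 0.00177, edgeR). kif5bb was at 21.2 to 23.4 CPM in AB, at 31.6, 31.2 and 36.6 CPM in non-scoliotic and at 36.1, 36.2 and 33.9 CPM in scoliotic fish, 1.43- and 1.51-fold higher (largest adjusted p = 0.00527). kif21b, the relative of kif21a, was at 14.0, 11.2 and 11.9 CPM in kif7co63/+ fish and at 5.59, 3.22 and 6.40 CPM in scoliotic fish, 2.44-fold lower (-1.28 ± 0.26, adjusted p = 0.00947). Against AB, kif21b was lower in scoliotic fish (-0.91, adjusted p = 0.032), but not without any 1 of the AB fish (adjusted p from 0.0665 to 0.0979). Neuron markers summed to 1056 to 1535 CPM over the 12 fish at 6 wpf, and 2 of 15 were higher in scoliotic than in AB fish.

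Of the vesicle kinesins, kifc3, kif13bb and kif16ba were lower in both homozygous groups than in AB, each with every library left out in turn. kif13bb was at 60.0, 56.4 and 56.1 CPM in AB, at 41.7, 40.9 and 38.5 CPM in non-scoliotic and at 43.0, 37.2 and 37.5 CPM in scoliotic fish, 1.47- and 1.54-fold lower (largest adjusted p = 0.00177, edgeR). kifc3 was at 142, 149 and 161 CPM in AB and at 94.0 to 122 CPM in the 6 homozygous fish, 1.56- and 1.41-fold lower (largest adjusted p = 0.00713). So within the gene pair kif13ba and kif13bb, 1 copy was higher and the other lower than in AB. kif13ba was 1.34-fold higher in non-scoliotic fish (adjusted p = 0.00881) and 1.24-fold higher in scoliotic fish (adjusted p = 0.0252), the latter call being lost without AB fish 2 (0.30, adjusted p = 0.0792), AB fish 3 (0.26, adjusted p = 0.0971), scoliotic fish 1 (0.31, adjusted p = 0.0507) or scoliotic fish 3 (0.30, adjusted p = 0.0653). kif1c, a carrier of vesicles, was at 2.96, 3.71 and 3.52 CPM in AB and at 5.79, 5.25 and 6.27 CPM in non-scoliotic fish (0.72 ± 0.17, adjusted p = 0.0146), a call lost without non-scoliotic fish 3 (0.64, adjusted p = 0.0508). How the counting divided reads between near-identical stretches of such copies is not given in the sources used here. kif26ab was at 41.3 to 53.9 CPM in the 6 homozygous fish and at 26.2 to 30.4 CPM in kif7co63/+ fish, 1.70- and 1.74-fold higher (largest adjusted p = 0.00583), and at 25.7, 43.8 and 27.6 CPM in AB fish. kif26aa was higher in non-scoliotic fish than in AB (0.48 ± 0.15, adjusted p = 0.0367), but not without any 1 of the AB fish or non-scoliotic fish 2 or 3 (adjusted p from 0.0813 to 0.11).

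The ciliary kinesins were few, and among them kif3a, kif17 and kif6 were low. kif3b was at 24.7, 24.8 and 25.3 CPM in AB, at 22.0, 17.98 and 18.3 CPM in kif7co63/+, at 26.7, 25.3 and 27.3 CPM in non-scoliotic and at 27.8, 29.0 and 27.1 CPM in scoliotic fish. It was called lower in kif7co63/+ than in AB fish (-0.36 ± 0.11, adjusted p = 0.0363, edgeR), but not without AB fish 1 (adjusted p = 0.0854), 2 (adjusted p = 0.078) or 3 (adjusted p = 0.0974) or kif7co63/+ fish 2 (adjusted p = 0.089) or 3 (adjusted p = 0.058). In scoliotic fish it was 1.44-fold above kif7co63/+ fish (adjusted p = 0.0109), with each library left out, and against AB it was called in neither homozygous group.

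kif3a, the partner of kif3b, varied widely within AB, at 1.04, 2.36 and 4.92 CPM in the 3 AB fish and at 8.08 and 1.06 CPM in the 2 AB pools, while the other 9 fish lay between 0.472 and 1.12 CPM. It was called lower in non-scoliotic (-1.82 ± 0.59, adjusted p = 0.0446, edgeR) and in kif7co63/+ fish (-1.74 ± 0.53, adjusted p = 0.0329) with overlapping libraries. Without AB fish 3 these values were -1.11 (adjusted p = 0.158) and -1.03 (adjusted p = 0.123), the calls were also lost without AB fish 2, any 1 of the non-scoliotic fish or kif7co63/+ fish 1 or 2 (adjusted p from 0.0567 to 0.1), and in scoliotic fish it was not called (-1.76 ± 0.62, adjusted p = 0.059). kif17, a motor of the outer cilium segment, was at 0.970, 0.944 and 1.22 CPM in AB fish and at 0.515 to 0.756 CPM in the 6 homozygous fish, with no overlap, but was not called (adjusted p = 0.0588 in non-scoliotic and 0.0825 in scoliotic fish). kif6 lay at 1.47, 0.371 and 0.600 CPM in AB and at 0.142 to 0.344 CPM in homozygous fish (adjusted p = 0.0881 and 0.0762). The 14 markers of motile ciliated cells found, of 15, none of them at 0, summed to 48.8 to 53.2 CPM in AB, 34.9 to 45.7 CPM in kif7co63/+ and 49.3 to 53.8 CPM in homozygous fish. The largest, spag1a, had means of 33.0 CPM in AB and 19.9 CPM in kif7co63/+ fish and weighs most in this sum. Between kif7co63/+ and AB fish 1 of the 14 was called lower and 0 higher (edgeR), and their median log2 fold change was 0.25.

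**Figure D5:**
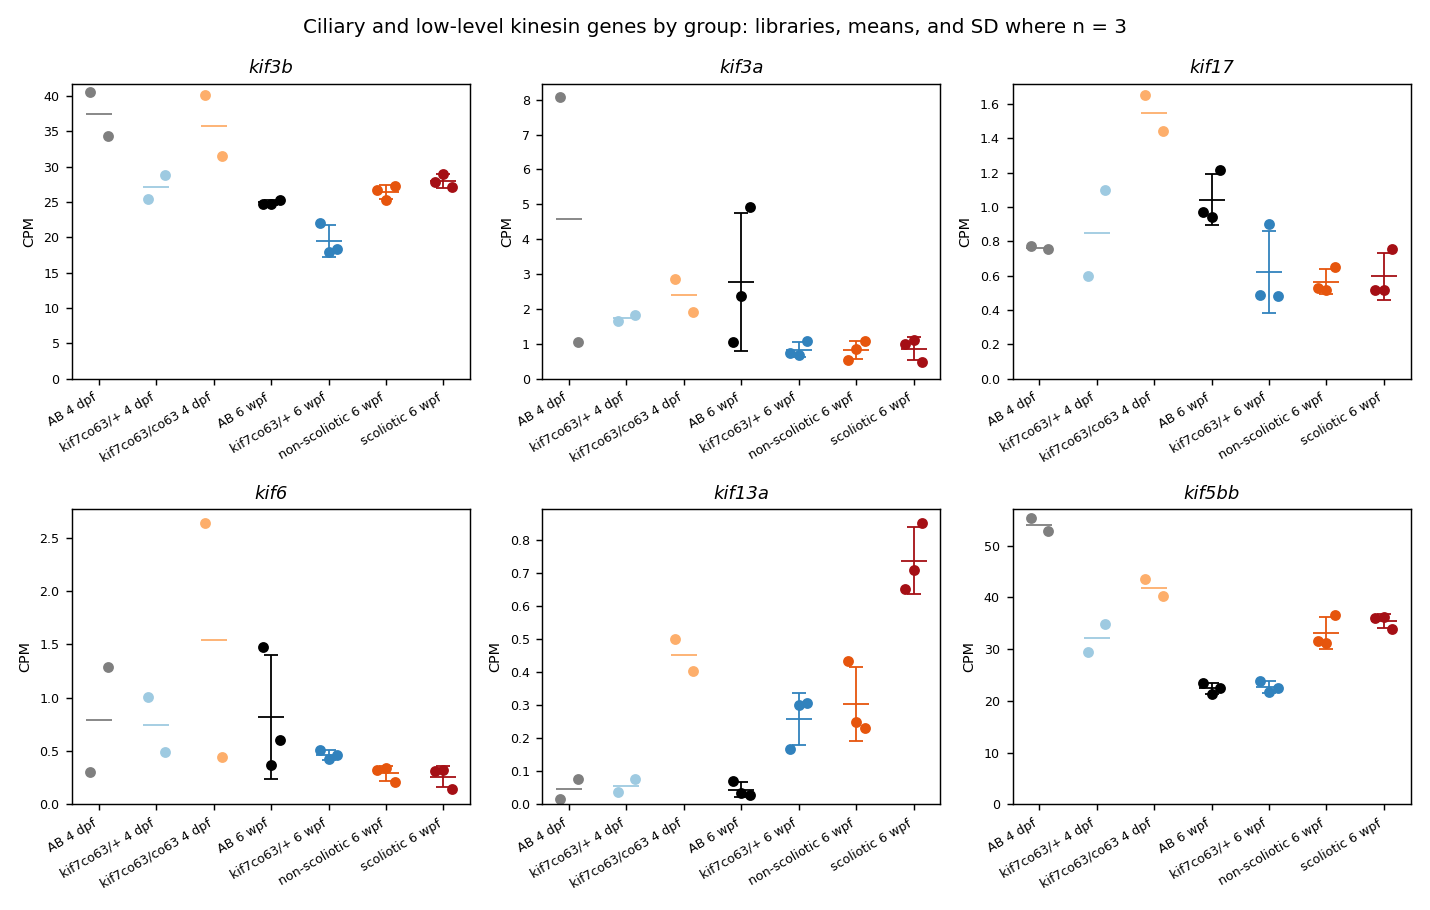
CPM of 4 ciliary kinesin genes, of kif13a and of kif5bb in each library (points) by group, with the group mean (horizontal line) and, for groups of 3 fish, the SD (bars). kif3a and kif6 are scattered within AB, kif13a is near 0 in AB and kif7co63/+ pools and in AB fish, and kif5bb is high in AB pools.

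kif13a (ENSDARG00000069594, chr16:53387085-53451351, plus strand), an endosome motor, was measured on few reads. AB fish held 8 reads in all, at 0.0693, 0.0337 and 0.0286 CPM, and kif7co63/+ fish 39 reads, at 0.169, 0.300 and 0.306 CPM. Non-scoliotic fish held 50 reads, at 0.433, 0.248 and 0.231 CPM, and scoliotic fish 98 reads, at 0.651, 0.709 and 0.850 CPM. From the summed reads the level was 17.2-fold that of AB in scoliotic fish (exact 95% interval 8.38 to 40.9), 7.40-fold in non-scoliotic fish (3.48 to 18.1) and 6.09-fold in kif7co63/+ fish (2.81 to 15.1), intervals that cover counting error only. Against AB, kif13a passed the filter on low counts through the homozygous fish, where it is high. In scoliotic against kif7co63/+ or non-scoliotic fish it passed through the scoliotic fish, and in kif7co63/+ fish against pools through the fish. It was not tested between kif7co63/+ and AB fish, so its calls depend on that filter. edgeR called it in scoliotic (3.95 ± 0.53, adjusted p = 0.00156) and in non-scoliotic fish (2.72 ± 0.65, adjusted p = 0.0146) against AB. The latter call was lost without AB fish 2 (2.57, adjusted p = 0.0619), AB fish 3 (2.48, adjusted p = 0.0706) or non-scoliotic fish 1 (2.34, adjusted p = 0.0629). At 4 dpf the kif7co63/co63 pools held 49 reads, against 5 in AB and 6 in kif7co63/+ pools, at ratios of 10.5 (4.20 to 33.8) and 8.09 (3.46 to 23.1), but the tests across pools did not call it (adjusted p = 0.538 and 0.796).

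Scoliotic and non-scoliotic fish, of the same genotype, were compared to ask which transcripts go with the curvature. None of the 42 members tested was called, beside 0.38% of all genes called, and DESeq2 called 0 as well. At an unadjusted p under 0.05 there was 1, kif13a, 2.41-fold higher in scoliotic fish (1.27 ± 0.45, adjusted p = 0.673, edgeR), with no overlap between the groups and a ratio of summed reads of 2.32 (1.63 to 3.33). Here too kif13a passed the filter on low counts through the scoliotic fish, where it is high. The groups did not overlap for 1 member that was higher, kif13a, and 2 that were lower in scoliotic fish, kif13ba (-0.08 ± 0.07) and kif28 (-0.73 ± 0.39), beside 6.35% and 6.29% of all genes. The median log2 difference over the members was 0.07, against 0.00 over all genes.

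At 4 dpf few members differed between genotypes. In kif7co63/+ pools 2 of 41 were called, each lower than in AB, beside 6.21% of all genes called (3.84% higher, 2.37% lower). The pools did not overlap for 3 members that were higher and 20 that were lower, beside 24.9% and 30.7% of all genes. kif15 was at 29.5 and 32.6 CPM in AB and at 16.5 and 19.6 CPM in kif7co63/+ pools (-0.73 ± 0.17, adjusted p = 0.0402, edgeR), and kif5bb at 55.3 and 52.7 against 29.5 and 34.8 CPM (-0.70 ± 0.15, adjusted p = 0.0335). With 1 pool left out, its group holds 1 library, so no count is given from those runs. The calls of kif15 and kif5bb were lost without either kif7co63/+ pool.

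No member was called between kif7co63/co63 and AB pools, of 42 tested, beside 0.509% of all genes, and DESeq2 called 0. At an unadjusted p under 0.05 there were 2, kif13a and kif13ba, the latter at 97.4 and 88.3 CPM in AB and at 53.0 and 50.8 CPM in kif7co63/co63 pools (-0.84 ± 0.33, adjusted p = 0.612, edgeR). Here and against kif7co63/+ pools, kif13a passed the filter on low counts through the kif7co63/co63 pools. Runs without 1 kif7co63/co63 pool leave 1 library in that group, so no member count is given from them. The pools did not overlap for 5 members on each side (16.8% of all genes higher, 15.6% lower). Between kif7co63/co63 and kif7co63/+ pools 0 of 42 were called, beside 0.0358% of all genes, and 8 higher and 3 lower did not overlap (19.7% and 14% of all genes). DESeq2 called 0 as well, and 2 had an unadjusted p under 0.05 (kif13a and kif16bb). For the same reason, no count is given here without 1 of the kif7co63/co63 pools. These pools differed from each other in many members: kif1aa was at 231 and 104 CPM, kifc1 at 9.73 and 27.7 CPM and kif5ba at 82.5 and 152 CPM.

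Whether the genotype difference itself changed with age was tested in a model of both ages. For kif7co63/+ minus AB, 4 of 42 members were called, beside 17.4% of all genes (10.3% higher, 7.09% lower). kif1aa (0.78 ± 0.17, adjusted p = 0.00926, edgeR) and kif5bb (0.77 ± 0.17, adjusted p = 0.00931) shifted upwards with age. kif1aa was at 109 and 124 CPM in kif7co63/+ pools, below the 168 and 153 CPM of AB, and at 81.7 to 89.4 CPM in kif7co63/+ fish, above the 62.7 to 71.2 CPM of AB. kif5ba (-0.76 ± 0.17, adjusted p = 0.00994) and kif13bb (-0.88 ± 0.22, adjusted p = 0.0192) shifted downwards. The count was 9 without kif7co63/+ fish 3, beside 21% of all genes. Runs that leave 1 pool in a group are given no count. Only kif5ba was called with each library left out.

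For kif7co63/co63 minus AB, with the homozygous fish averaged, 7 of 42 were called, beside 11% of all genes (4.22% higher, 6.75% lower). kif13ba (1.21 ± 0.18, adjusted p = 0.00441, edgeR), kif20bb, kif5bb and kif15 shifted upwards with age, and for each of these 4 the mean of the homozygotes lay below AB at 4 dpf and above it at 6 wpf. kif11 (-1.24 ± 0.22, adjusted p = 0.00719), kif13bb and kif17 shifted downwards. No count is given without 1 of the pools, as its group is then left with 1 library. kif13ba and kif5bb were called with each library left out.

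The adaptors and dynein genes were counted at 6 wpf beside the shares of all genes given above for each comparison. In kif7co63/+ against AB fish, 3 of 11 adaptors and 7 of 17 dynein and dynactin genes were lower and 0 of either list higher at an adjusted p under 0.05. Against AB, 1 adaptor was lower in scoliotic and 1 lower and 1 higher in non-scoliotic fish, the lower one being cenpe in each (-0.55, adjusted p = 0.0017, and -0.73, adjusted p = 0.000723, edgeR), and 4 dynein genes were lower and 1 higher in each group. Against kif7co63/+ fish, 2 adaptors were higher and 1 lower in non-scoliotic and 3 higher and 1 lower in scoliotic fish, and 4 dynein genes were higher and 3 lower in non-scoliotic and 5 higher and 2 lower in scoliotic fish. The intermediate chain dync1i2b was lower in kif7co63/+ than in AB fish (-0.74, adjusted p = 0.00264) and higher than in kif7co63/+ in both homozygous groups (1.25 and 1.22, largest adjusted p = 0.00121). The light chains dynll2a (-2.51 and -2.13) and dynll2b (-2.49 and -2.10), in non-scoliotic and scoliotic fish, had the largest changes against AB of the list (largest adjusted p = 0.00887).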

How the data were processed

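The authors removed reads with adapters or of low quality, mapped the rest to GRCz11 with HISAT2 and deposited raw read counts per Ensembl gene, without normalization. The submitters' processing notes also name fastp, StringTie, featureCounts and DESeq2, and neither the annotation release nor the use of strand is given in the sources used here. A second deposited table, of the authors' own comparison of scoliotic with kif7co63/+ fish (fold changes and p-values), and its 18 per-sample columns were not used.

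Each comparison was fitted on the whole count table with edgeR 4.0.16 in R 4.3.3 (filterByExpr with min.count 10 and min.total.count 15, TMM factors, glmQLFit, glmQLFTest), with only the groups compared in a fit, and p-values were adjusted over all genes tested. The change of a genotype difference with age was a contrast over the groups of both ages. CPM used TMM factors over all 18 libraries, and levels per kb used the deposited gene length. On simulated data the tests missed part of the changed genes, and the share of false calls was above the threshold used. Of 200 genes changed by 2 on the log2 scale, 128 were recovered, with 19 false calls, for non-scoliotic against AB fish. For kif7co63/+ against AB pools these were 162 and 19, and for the ages of AB 142 and 16. The simulation changed 200 of 22248 to 23474 genes, whereas the real comparisons, in the same order, called 43.1%, 6.21% and 58.6%. Its shares of recovered genes and false calls therefore do not carry over to the real calls. Calls near the threshold remain uncertain. Nothing says that the libraries of a group came from separate clutches, so p-values measure the spread between these libraries. Members, role groups and lists were chosen with earlier results of these data known. Named in each comparison were at most the 12 called members with the largest and the 12 with the smallest log2 fold changes. Also set for naming in their role groups were kif3a, kif3b, kif17, kif6, kif11, kif20a, kif23, kif1aa, kif5aa and kif5ba. Not every one of these is given in every comparison. Other members were named after their values were seen. The results were recomputed with DESeq2 1.42.0, RLE factors, no filter or one on a mean of 1 CPM, 1 fit over all 18 libraries or over an age, a replicate block, and each library left out. Leaving out each kif7co63/co63 pool at 4 dpf and crossed replicate numbers for those pools were looked at after seeing the data. No sequence was printed, and kif9 was not analysed here.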

Additional observations from a re-analysis of the deposited data

Results flagged for a closer look

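The difference between genotypes changed between 4 dpf and 6 wpf for 4 members in kif7co63/+ and 7 in kif7co63/co63, each by the test of that change itself (a contrast of both ages, edgeR). For kif7co63/+ minus AB the change on the log2 scale was 0.78 for kif1aa (adjusted p = 0.00926), 0.77 for kif5bb (adjusted p = 0.00931), -0.76 for kif5ba (adjusted p = 0.00994) and -0.88 for kif13bb (adjusted p = 0.0192). The calls of kif1aa (0.70, adjusted p = 0.0551) and kif5bb (0.66, adjusted p = 0.0572) were lost without kif7co63/+ pool 1, and that of kif13bb without kif7co63/+ pool 1 (-0.74, adjusted p = 0.0965) or AB pool 1 (-0.84, adjusted p = 0.0616).

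For kif7co63/co63 minus AB the change was 1.21 for kif13ba (adjusted p = 0.00441), 0.95 for kif20bb (adjusted p = 0.0281), 0.93 for kif5bb (adjusted p = 0.00855), 0.88 for kif15 (adjusted p = 0.0172), -0.89 for kif13bb (adjusted p = 0.0135), -1.24 for kif11 (adjusted p = 0.00719) and -1.92 for kif17 (adjusted p = 0.0374). Without AB pool 1, kif15 (0.94, adjusted p = 0.0572), kif13bb (-0.84, adjusted p = 0.0742) and kif11 (-1.16, adjusted p = 0.0518) lost their calls. kif15 also lost its call without AB pool 2 (0.81, adjusted p = 0.0608), and kif20bb without AB pool 2 (0.73, adjusted p = 0.112), AB fish 2 (0.91, adjusted p = 0.0679) or AB fish 3 (0.92, adjusted p = 0.0697). kif17 lost it without any 1 of 10 of the 13 libraries, at adjusted p up to 0.131, with values from -2.02 to -1.79 over the 13. The kif7co63/co63 pools, which enter each of these 7 values, stood apart from each other.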

How the results depend on the processing

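No called member reversed its direction under any alternative run. Shares of all genes called in the same runs follow in parentheses. With all 18 libraries in 1 fit, 6 members were called in place of 13 for kif7co63/+ against AB at 6 wpf (19.8%). For non-scoliotic against kif7co63/+ fish, 10 were called in place of 16 (29%). At 4 dpf, 2 were called in place of 0 for kif7co63/co63 against AB (2.6%). For the change with age of kif7co63/+ minus AB, 2 were called in place of 4 (7.46%). For kif7co63/+ against AB at 4 dpf the number was 6 with DESeq2 (11.5%) and 7 with no filter (10.5%), in place of 2. It was 0 with all libraries of that age in 1 fit (0.0921%). The causes were not tested. With each library left out in turn, counts ran from 28 to 30 for age in AB, 17 to 31 in kif7co63/+ and 18 to 27 in kif7co63/co63, from 5 to 18 for kif7co63/+ against AB, 15 to 18 and 13 to 19 for non-scoliotic and scoliotic fish against AB, and 9 to 13 and 9 to 12 for them against kif7co63/+, at 6 wpf. They ran from 0 to 0 for scoliotic against non-scoliotic fish, from 0 to 11, 0 to 4 and 0 to 16 for the pairs of genotypes at 4 dpf, and from 1 to 9 and 3 to 15 for the changes with age. A group left with 1 library was assumed to vary like the others.

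Libraries of the same replicate number had correlations of deviations from -0.127 to 0.436, and in no pair of groups were all above 0.1. Between non-scoliotic and scoliotic fish these were 0.436, 0.293 and 0.0378 for numbers 1, 2 and 3. Between unlike numbers of these 2 groups they ran from -0.383 to 0.0761. Whether the numbers mark paired fish is not given in the sources used here. With the number as a replicate block, shares of all genes again in parentheses, the counts for age were 28 (50.3%), 26 (48.7%) and 16 (27.2%). At 6 wpf they were 14 (32.9%) for kif7co63/+ against AB and 0 (0.131%) between scoliotic and non-scoliotic fish. For non-scoliotic and scoliotic fish they were 19 (34.4%) and 17 (34.6%) against AB, and 12 (32.9%) and 9 (27.7%) against kif7co63/+. At 4 dpf they were 3 (5.61%), 0 (2.35%) and 0 (1.18%), and for the changes with age 4 (15.2%) and 6 (7.16%). Crossed numbers for AB and kif7co63/co63 pools gave 0 (2.51%). The mitotic sum without kif24 was not run, as kif24 is not among the members. Depth limits kif13a, with 8 reads over the 3 AB fish at 6 wpf, and kif20ba, with reads in 2 libraries.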
